A study of Mus musculus with 6 samples.

Results

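Ribosomal protein pseudogenes are the rows of the deposited count table whose symbol is a ribosomal protein gene followed by -ps, and they number 203 of the 32066 rows that name a gene. Each was set beside its parent, the functional gene whose symbol precedes -ps, and the 203 pseudogenes had 57 parents, all present in the table. They were chosen by symbol and by having at least 1 count in any library, and the rule used no difference between the groups. The choice was nevertheless made with earlier results of these data known. By subunit, 114 carried names of the large ribosomal subunit and 89 names of the small subunit. The table itself typed 187 as pseudogenes, 14 as protein-coding genes and 1 as noncoding RNA, and left 1 without a type.

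The libraries came from hippocampus, a brain region needed for forming memories, of female wild-type C57BL/6J mice aged 17 weeks. All 6 mice, in both groups, had been ovariectomised, so that they lacked the ovaries that supply most estrogen. From the age of 8 weeks the 3 OVX mice were fed a control diet and the 3 OVX+RJ mice were given food with 1% royal jelly, which worker honeybees secrete to feed larvae. Each library is labelled a biological replicate, and sham-operated mice that the protocol mentions are not analysed here. The p-values below therefore measure the spread between 3 libraries in each group. Hippocampal neuron markers were at 2279.8 to 2446 CPM (counts per 1000000 counts of the library) in OVX and 2314 to 2365 CPM in OVX+RJ as a sum of 8 genes, none of them at 0. The library totals ran from 34718592.5 to 58163779 counts. Markers of other cells that the tissue piece could hold, 16 genes for myelin, vessels, blood, glia and choroid plexus, summed to 2856 to 4375 CPM in OVX and 3321 to 4251 CPM in OVX+RJ, and all 16 were detected. The library OVX+RJ 1 stood somewhat apart, with a mean correlation of 0.983 with the others against 0.986 to 0.987 for the rest.

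Ribosomal protein genes encode the proteins that, together with ribosomal RNA, make up the ribosome, and their short, abundant mRNAs are among the most copied by the reverse transcriptase of mobile elements. A copy inserted elsewhere in the genome, called a processed pseudogene, lacks introns and usually a promoter of its own, and it decays by mutation over evolutionary time. Young copies stay so close to the parent that a short read can align to either, so counts given to a pseudogene can come from the parent's mRNA, from the pseudogene's own transcript or from a transcript of a gene around it. The sources used here do not give how reads that align to several places were counted, and the counts of a pseudogene and its parent cannot be fully told apart.

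The sequences below show how few bases separate some of the pseudogenes from their parents, at both high and low counts. They are stretches of the coding sequence from GENCODE M21 on GRCm38, 5′ to 3′, with the bases that differ within each set in capitals and positions counted from 1 at the first base of the start codon. Rps27a encodes ubiquitin fused to a small-subunit protein, and the abundant copies Rps27a-ps2 and Rps27a-ps3 each differ from it at 1 base of the aligned coding sequence: A375G in Rps27a-ps2 and A71G in Rps27a-ps3. The remaining copy, Rps27a-ps1, is more decayed, with 89.9% identity. Coding positions 41 to 100 and then 345 to 404 are shown.
Rps27a: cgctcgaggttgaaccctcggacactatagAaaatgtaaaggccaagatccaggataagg
Rps27a-ps2: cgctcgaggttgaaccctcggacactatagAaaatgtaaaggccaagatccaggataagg
Rps27a-ps3: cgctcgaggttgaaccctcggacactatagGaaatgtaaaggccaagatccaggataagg
Rps27a: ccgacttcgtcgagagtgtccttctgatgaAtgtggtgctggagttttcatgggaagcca
Rps27a-ps2: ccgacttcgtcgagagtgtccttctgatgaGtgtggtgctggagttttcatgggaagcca
Rps27a-ps3: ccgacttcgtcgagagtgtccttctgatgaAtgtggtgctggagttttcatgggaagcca

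Rpl7a encodes a large-subunit protein, and Rpl7a-ps11 differs from it at 2 of 798 coding bases, A186G and A747C. The first of these lies in coding positions 156 to 215 and the second in positions 717 to 776.
Rpl7a: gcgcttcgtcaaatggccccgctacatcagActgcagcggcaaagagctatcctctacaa
Rpl7a-ps11: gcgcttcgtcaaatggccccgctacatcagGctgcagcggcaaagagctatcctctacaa
Rpl7a: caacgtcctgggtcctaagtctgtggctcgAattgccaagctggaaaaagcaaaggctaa
Rpl7a-ps11: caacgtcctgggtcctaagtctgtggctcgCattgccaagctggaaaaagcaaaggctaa

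Rps13, a small-subunit gene, has Rps13-ps1 with the substitutions T411C and A429G and Rps13-ps2 with none in its coding sequence. Coding positions 390 to 449 hold both differences.
Rps13: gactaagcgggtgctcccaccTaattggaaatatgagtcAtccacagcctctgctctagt
Rps13-ps1: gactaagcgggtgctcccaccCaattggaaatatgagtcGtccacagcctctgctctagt
Rps13-ps2: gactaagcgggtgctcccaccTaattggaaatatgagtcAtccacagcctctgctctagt

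Rps25-ps1, the pseudogene with the largest fold change between the diets among the 79 that were tested, carries 4 substitutions from its small-subunit parent Rps25: T6G, G55A, G159A and C188T. Positions 47 to 166 show G55A and G159A, and no base was inserted or lost.
Rps25: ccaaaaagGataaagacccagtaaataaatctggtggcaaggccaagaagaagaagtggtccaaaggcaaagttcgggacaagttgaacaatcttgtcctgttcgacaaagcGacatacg
Rps25-ps1: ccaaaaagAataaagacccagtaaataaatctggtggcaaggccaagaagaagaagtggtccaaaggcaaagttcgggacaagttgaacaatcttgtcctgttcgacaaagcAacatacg

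Rpl26-ps6 is shown as a decayed copy for contrast. Against its large-subunit parent Rpl26 it had 42 mismatches and 1 gap over 435 aligned positions. Of the mismatches, 14 lie in the stretch from position 40 to 159. None of its 50-base stretches occurs in the parent transcript.
Rpl26: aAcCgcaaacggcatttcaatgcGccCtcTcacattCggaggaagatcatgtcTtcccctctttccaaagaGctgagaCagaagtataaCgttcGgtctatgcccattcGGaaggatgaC
Rpl26-ps6: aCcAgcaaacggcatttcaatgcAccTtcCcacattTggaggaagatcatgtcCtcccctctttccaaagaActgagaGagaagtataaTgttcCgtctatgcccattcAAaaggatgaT

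The counts were concentrated in few pseudogenes. The 5 with the most counts held 42.3% of all CPM given to the 203 and the 12 with the most held 67.6%. At a mean over the 6 libraries of 10 CPM or more there were 15 pseudogenes, 40 lay between 1 and 10 CPM and 148 below 1 CPM, 95 of them below 0.1 CPM. Rpl13-ps6 with 1.02 CPM and Rpl35a-ps6 with 0.994 CPM were the nearest on either side of 1 CPM. In 66 pseudogenes no library had more than 3 counts, and 21 were seen in a single library, whereas 117 had counts in all 6. One count corresponded to 0.0172 to 0.0288 CPM, so that below 0.1 CPM a value rested on a handful of reads.

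The median pseudogene had 0.120 CPM and the median parent 98.9 CPM. As a share of its own parent's counts, the median pseudogene stood at 0.136%, 146 of 203 lay below 1% and 19 at 10% or more. These shares compare counts and not counts per length, and the parents' annotated transcripts are mostly longer than the copies. Per kilobase of annotated length, the median share of the 195 copies with a known length was 0.295%. A parent's length is that of a single annotated transcript, which can far exceed its coding sequence, as in Rps15a with 5179 against 390 bases. With a shorter transcript the shares per kilobase would be lower. Copies of large-subunit genes summed to 410.3 CPM and copies of small-subunit genes to 189 CPM, with medians of 0.127 and 0.104 CPM. The parents with the most copies were Rps12 with 16, Rpl21 with 13 and Rpl31 with 11, while 18 parents had 1 copy each.

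**Figure D1:**
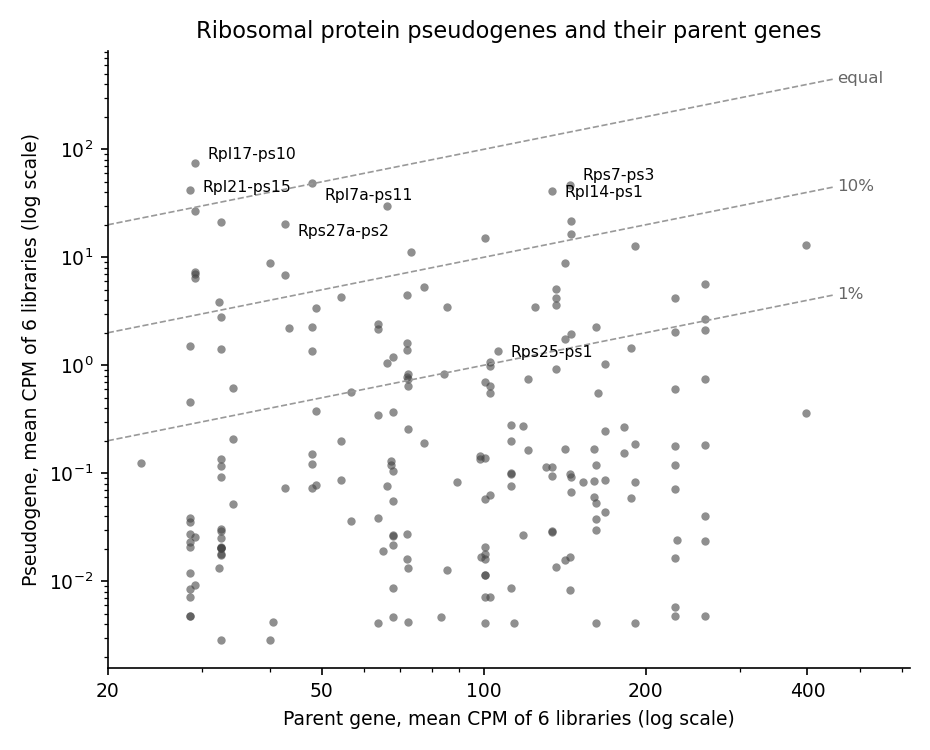
Mean CPM over 6 libraries of each of the 203 pseudogenes (y axis, log scale) against the mean CPM of its parent gene (x axis, log scale). Dashed lines mark equal counts, 10% and 1% of the parent. Only 3 pseudogenes lie above the line of equal counts, Rpl17-ps10, Rpl21-ps15 and, at 48.4 against 48.0 CPM, Rpl7a-ps11, and 146 lie below 1%.

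In 3 pairs the pseudogene row held more counts than the parent. Rpl17-ps10, a copy of a large-subunit gene whose protein lines the peptide exit tunnel, had 77.9, 69.7 and 81.9 CPM in OVX and 72.3, 74.7 and 69.3 CPM in OVX+RJ, against 27.4, 37.8 and 27.3 and then 30.9, 24.7 and 26.0 CPM for Rpl17. The pseudogene was above the parent in every library, and the diet groups overlapped for both rows. Per kilobase of annotated length the means were 134 CPM for Rpl17-ps10 and 21.9 CPM for Rpl17. Rpl17-ps10 matched the parent at 99.3% of coding bases, and 85.8% of its 50-base stretches also occur in a transcript of another gene. All 7 copies of Rpl17 together took 421% of the parent's counts.

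Rpl21-ps15, a copy of another large-subunit gene, had 43.5, 42.9 and 43.2 CPM in OVX and 41.6, 42.1 and 39.0 CPM in OVX+RJ. Rpl21 itself had 24.5, 25.7 and 30.8 CPM in OVX and 26.6, 36.0 and 26.7 CPM in OVX+RJ, below the pseudogene in every library. The pseudogene varied little between libraries, from 39.0 to 43.5 CPM. For all 13 Rpl21 copies summed the coefficient of variation was 2.92%, and for the single parent row it was 15.1%. Per kilobase of annotated length Rpl21-ps15 had 87.1 CPM and Rpl21 15.3 CPM. It lies in an intron of Wnk3 on the opposite strand.

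Rpl7a-ps11 was level with its parent, with a mean of 48.4 CPM against 48.0 CPM. In OVX it had 47.7, 40.7 and 50.6 CPM, and in OVX+RJ 50.4, 51.0 and 50 CPM. Rpl7a had 48.4, 70.5 and 49.9 CPM in OVX and 44.2, 38.4 and 36.6 CPM in OVX+RJ. The pseudogene was thus below the parent in OVX 1 and OVX 2 and above it in OVX 3 and all 3 OVX+RJ libraries. Every 50-base stretch of its annotated sequence also occurs in another gene's transcript, 86.7% in that of Rpl7a.

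The other abundant copies had a lower mean CPM than their parents. Rps7-ps3, a copy of a small-subunit gene, had 44.3 to 53.6 CPM over the 6 libraries, and Rpl14-ps1 had 39.0 to 43.1 CPM. Rps10-ps2 ranged from 25.6 to 34.2 CPM, Rpl17-ps3 from 23.6 to 32.3 CPM and Rps12-ps3 from 18.5 to 24.1 CPM. Rpl9-ps6 had 19.4 to 24.9 CPM, Rps27a-ps2 9.19 to 26.4 CPM, Rpl9-ps4 15.6 to 17.6 CPM and Rpl31-ps8 12.9 to 18.7 CPM. Of these, only Rps27a-ps2 spanned more than a doubling between its lowest and highest library. Per kilobase of annotated length Rps27a-ps2 reached 80.6% of its parent, Rps10-ps2 80.4% and Rps12-ps3 77.4%. Rpl17-ps3 passed its parent on that scale, at 223%, and counted per kilobase 4 of the 195 pseudogenes with a known length exceeded the parent. That depends on the transcript chosen for the parent, which for Rpl17 has 1326 bases, 552 of them coding. In counts Rpl17-ps3 was at 93.4% of its parent.

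Median counts were higher in classes of pseudogenes nearer in sequence to the parent, but the rows with the most counts were not the nearest. Rpl17-ps10, with 74.3 CPM, had 99.3% identity, while Rpl17-ps3, with 27.1 CPM, had 99.6%. The highest copy with 100% identity had 21.3 CPM. Of the 203, 195 were found in the GENCODE M21 annotation, 185 by symbol and 10 by an older symbol, and 191 of them could be aligned to the parent's coding sequence. The 14 that matched the coding sequence at every aligned base had a median of 4.69 CPM, and 13 of them reached 1 CPM. In Rpl10a-ps1 and Rps23-ps1 of this class the alignment covered 99.5% and 99.1% of the coding sequence. The 50 with 99% to under 100% identity had a median of 1.84 CPM, and they held 71.4% of the CPM of all pseudogenes. The median was 0.0799 CPM for the 44 with 98% to under 99%, 0.0272 CPM for the 50 with 95% to under 98% and 0.0269 CPM for the 33 below 95%. Of the copies under 98% identity 1 reached 1 CPM. Each base of a gap counts as differing in this measure, and that copy, at 96.5%, had 7 mismatches and 1 gap over 879 aligned positions. Per kilobase of annotated length the medians of the 5 classes were 11.7, 3.65, 0.153, 0.0514 and 0.0442 CPM, so the order was the same on that scale.

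Seen from the counts, 53 aligned pseudogenes at 1 CPM or more had a median identity of 99.6%, none below 96.5%, and the 138 under 1 CPM had a median of 97.5% and reached down to 87.4%. Sequence shared with other genes followed the same order. A median of 91.1% of the 50-base stretches of pseudogenes at 1 CPM or more occur in a transcript of another gene, against 47.9% in those under 1 CPM. In 17 of the 53, Rps12-ps3, Rpl31-ps8, Rps6-ps4 and Rps16-ps2 among them, every 50-base stretch does. These rows hold no stretch of that length that only they carry, and counts from reads of that length depend on how shared reads were assigned. With stretches of 100 bases, all were still shared except in Rpl30-ps8 (73.6% shared) and Rpl34-ps1 (98.4% shared).

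**Figure D2:**
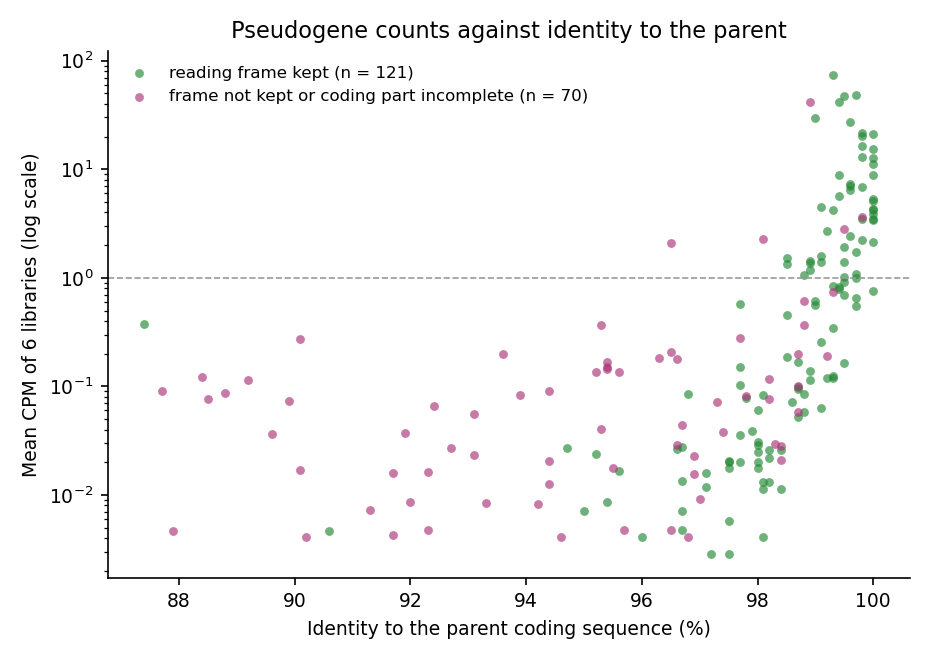
Mean CPM over 6 libraries (y axis, log scale) against nucleotide identity to the parent's coding sequence (x axis, %) for the 191 aligned pseudogenes. Green points counted as having kept the reading frame. Purple points had a gap of any length, an early stop codon or an incomplete coding sequence, and the dashed line marks 1 CPM. The copies at 1 CPM or more lie almost all at or above 98% identity, and 1 copy below 98% reached 1 CPM.

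A reading frame counted as kept was also more frequent among the abundant copies. The frame counted as kept where the alignment covered at least 95% of the coding sequence without a gap or an early stop codon. A gap of any length counted against a copy, so copies not counted as kept can still be in frame. By this rule the frame was kept in 121 of 191 copies, made up of 48 of the 53 at 1 CPM or more and 73 of the 138 below. Rpl14-ps1 with 41.4 CPM was the most abundant copy not counted as kept. It had 4 mismatches and 1 gap, and no early stop codon was looked for where a gap was present. Frame and identity move together here, since all 14 copies identical over the aligned bases kept it and 3 of the 33 under 95% did. No separate effect of the frame was tested.

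Position in the genome was set beside the counts as well. Of the 195 annotated copies, 123 lay between genes with a median of 0.0829 CPM, 23 in an intron of a gene on the same strand with 0.245 CPM and 41 in an intron on the opposite strand with 0.182 CPM. Another 3 overlapped an exon of a gene on the same strand and 5 an exon on the opposite strand. The share at 1 CPM or more was 29 of 123 between genes, 7 of 23 in same-strand introns and 15 of 41 in opposite-strand introns. The median identity was 98.9% in same-strand introns, 98.2% in opposite-strand introns and 98% between genes.

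The diet comparison asked whether any of these rows differed between OVX+RJ and OVX. Summed over all 203, the pseudogenes had 582, 591 and 649 CPM in OVX and 602, 593 and 577 CPM in OVX+RJ. The groups overlapped, with means of 608 ± 36.2 and 591 ± 12.6 CPM (SD, n = 3 each). Their parents summed to 6136, 6495 and 6636 CPM in OVX and 6069.8, 6118 and 5799 CPM in OVX+RJ. The parents' groups did not overlap, with means of 6422 ± 258 and 5996 ± 172 CPM (SD, n = 3 each). The pseudogenes' counts were 9.49%, 9.10% and 9.78% of the parents' in OVX, against 9.92%, 9.69% and 9.95% in OVX+RJ. That share was higher in 2 OVX+RJ libraries than in any OVX library, and OVX+RJ 2 fell inside the OVX range. In bulk tissue such as this, fewer cells of a type and less RNA per cell cannot be told apart.

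Of the 203 pseudogenes, 79 passed the low-count filter and were tested, and 0 passed an adjusted p of 0.05 (edgeR, quasi-likelihood, Benjamini-Hochberg over all genes tested). The same test called 0% of all 18629 genes. At an unadjusted p under 0.05 there were 7 pseudogenes, 3 higher and 4 lower in OVX+RJ, beside 4.05% of all genes (2.14% higher and 1.91% lower). DESeq2 called 1 pseudogene, Rps25-ps1, where it called 0.0790% of 16458 genes and 0.0608% as higher in OVX+RJ, the direction of Rps25-ps1. The copies that had too few counts to be tested, 124 of them, have no test.

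More of the tested pseudogenes had a negative than a positive fold change in OVX+RJ, with none passing the adjusted threshold by edgeR. Their log2 fold change was negative in 55 and positive in 24, where 50.4% of all genes were negative, and the median was -0.121 against -0.002 for all genes. The tested ones are those with enough counts, not all 203. They include 14 copies identical to the parent's coding sequence over the aligned bases and 43 with 99% to under 100% identity. Such copies can share reads with the parents and with each other, so these rows are not independent. Their parents showed the same sign more uniformly, negative in 52 of 57 with a median of -0.097. Of the cytosolic ribosomal protein genes as a whole, 86 were tested, 74 were negative and the median was -0.084. Of other translation genes with a terminal oligopyrimidine tract, the motif that ties their translation to nutrient signalling, 9 of 16 were negative with a median of -0.039, and none had a p under 0.05. Pseudogenes of other gene families served as a second reference, and 86 of the 156 tested were negative with a median of -0.032.

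**Figure D3:**
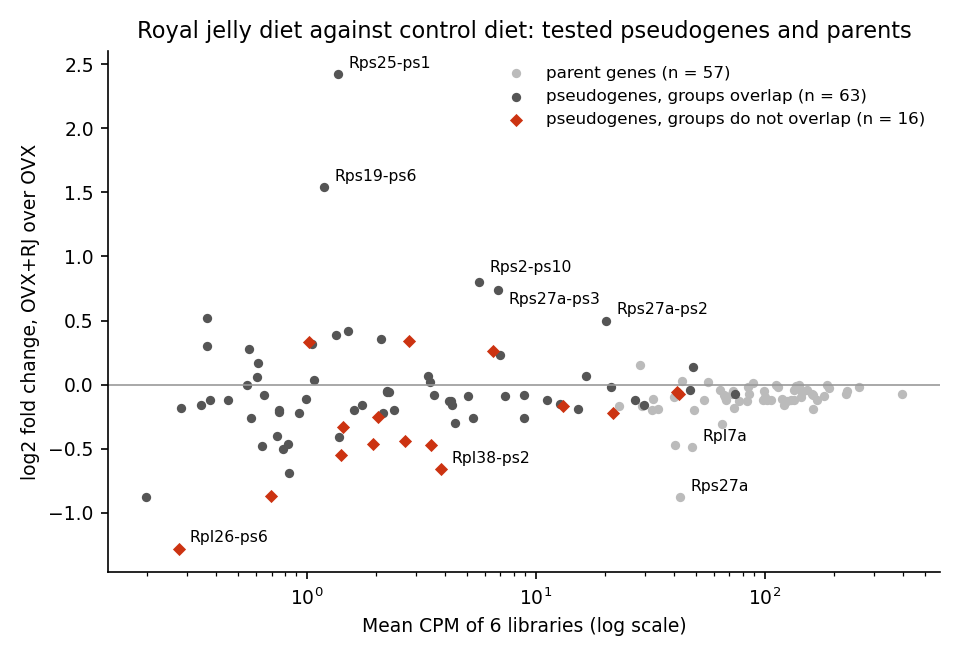
Log2 fold change of OVX+RJ over OVX (y axis) against mean CPM over 6 libraries (x axis, log scale) for the 79 tested pseudogenes and 57 parents. Red diamonds mark the 16 pseudogenes whose groups do not overlap, 13 of them below 0. The parents lie close to 0 except Rps27a at -0.88 and a few others, and Rps25-ps1 at 2.42 and Rps19-ps6 at 1.54 lie highest.

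In 16 of the 79 tested pseudogenes (20.3%) the 3 OVX+RJ libraries did not overlap the 3 OVX libraries, which held for 10.5% of all genes. Of these, 13 were lower in OVX+RJ, where the background was 5.95%, and 3 were higher, where it was 4.53%. For the parents the count was 14 of 57 (24.6%), all lower, and for pseudogenes of other families the share was 8.33%. The pseudogenes varied more between libraries, with a median coefficient of variation of 21.3% against 6.50% for the parents. No test of these list counts was made, and near-identical copies and parents are not independent rows in them.

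Among the copies whose groups did not overlap, Rpl38-ps2 had the lowest p. It had 5.16, 3.58 and 5.50 CPM in OVX and 3.33, 3.18 and 2.41 CPM in OVX+RJ. All OVX+RJ values were below all OVX values, and the log2 fold change was -0.66 ± 0.22 (SE), with an edgeR adjusted p of 0.986. This copy is identical to the coding sequence of Rpl38, a small large-subunit gene, and all of its 50-base stretches occur in the parent transcript.

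Rpl23a-ps3 had 3.83, 3.90 and 4.42 CPM in OVX and 2.99, 3.05 and 2.69 CPM in OVX+RJ. The 2 groups were tight and separate, and the log2 fold change was -0.47 ± 0.18 (SE; edgeR adjusted p = 0.986). It differs from Rpl23a, the parent that encodes a protein at the tunnel exit, at 1 of 468 coding bases. Rpl9-ps6 had 22.2, 23.0 and 24.9 CPM in OVX and 20.8, 19.4 and 19.4 CPM in OVX+RJ. The groups again lay apart, and the log2 fold change was -0.22 ± 0.094 (SE; edgeR adjusted p = 0.986).

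Rpl26-ps6 is a different case, since its sequence can be told from the parent's. Its counts were 12, 25 and 16 on the control diet and 3, 5 and 10 on royal jelly, or 0.346, 0.430 and 0.393 against 0.0779, 0.127 and 0.277 CPM. All OVX+RJ libraries were below all OVX libraries on the CPM scale, at few counts. The log2 fold change was -1.28 ± 0.50 (SE; edgeR adjusted p = 0.986), and it ranged from -1.89 to -0.96 with 1 library left out at a time. Of its 50-base stretches, 3.64% occur in another gene and 0% in Rpl26.

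Rps12-ps9 had 1.5, 1.48 and 2.04 CPM in OVX against 1.12, 1.14 and 1.14 CPM in OVX+RJ. Its log2 fold change was -0.55 ± 0.26 (SE; edgeR adjusted p = 0.986). The 3 higher copies without overlap were Rpl17-ps9 at 0.26, Rpl13-ps6 at 0.33 and Rps12-ps4 at 0.34 on the log2 scale, each with an edgeR adjusted p of 0.986. Rps12-ps4 had 2.74, 2.06 and 2.65 CPM in OVX and 2.86, 3.00 and 3.49 CPM in OVX+RJ, so that Rps12 had copies on either side. Rpl14-ps1 and Rpl21-ps15 did not overlap either but had log2 fold changes of -0.06 and -0.07, which did not exceed their SE of 0.071 and 0.073.

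Rps25-ps1 had the lowest p of all the pseudogenes, and it was singled out after its values were seen. Its counts were 10, 34 and 16 on the control diet and 145, 21 and 94 on royal jelly, or 0.288, 0.585 and 0.393 against 3.77, 0.533 and 2.60 CPM. OVX+RJ 1 and OVX+RJ 3 were far above the rest, while OVX+RJ 2 lay within the OVX range. The log2 fold change was 2.42 ± 0.60 (SE), with an edgeR adjusted p of 0.986. DESeq2 gave 2.45 with an adjusted p of 0.0178. Without OVX+RJ 2, edgeR gave 2.89 with an adjusted p of 0.0293, in a fit that called 0.0420% of 19027 genes. The parent Rps25 had 102, 109 and 123 CPM in OVX and 100.5, 106 and 97.0 CPM in OVX+RJ, with no such split. In the copy, 69.6% of the 50-base stretches occur in another gene's transcript and 59.3% in Rps25, and the remaining stretches occur in no other annotated transcript.

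The same OVX+RJ libraries were high in 2 further copies. Rps19-ps6 had 0.691, 0.309 and 0.859 CPM in OVX and 2.55, 0.686 and 2.02 CPM in OVX+RJ, where OVX+RJ 2 again lay within the OVX range. Its log2 fold change was 1.54 ± 0.50 (SE; edgeR adjusted p = 0.986). It lies in an intron of Tecpr2 on the same strand, and Tecpr2 had 97.0, 85.6 and 86.1 CPM in OVX and 81.2, 80.1 and 98.7 CPM in OVX+RJ, a log2 fold change of -0.04. Its parent Rps19, a small-subunit gene, changed by -0.12 on the log2 scale with overlapping groups. Rpl36-ps2, also chosen after its values were seen, was below the filter with 2, 4 and 2 counts on the control diet and 21, 5 and 14 on royal jelly. OVX+RJ 1 is also the library that stood apart over all genes. Without it the log2 fold change was 1.85 (adjusted p = 0.978 by edgeR) for Rps25-ps1 and 1.15 (adjusted p = 0.978 by edgeR) for Rps19-ps6.

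Rps2-ps10, a copy of a gene for a protein at the small subunit's mRNA entry, had 3.02, 3.75 and 5.64 CPM in OVX and 9.93, 6.22 and 5.21 CPM in OVX+RJ. The groups overlapped through OVX 3 and OVX+RJ 3, and the highest value was in OVX+RJ 1. The log2 fold change was 0.80 ± 0.27 (SE; edgeR adjusted p = 0.986), between 0.46 and 1.09 with 1 library left out.

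**Figure D4:**
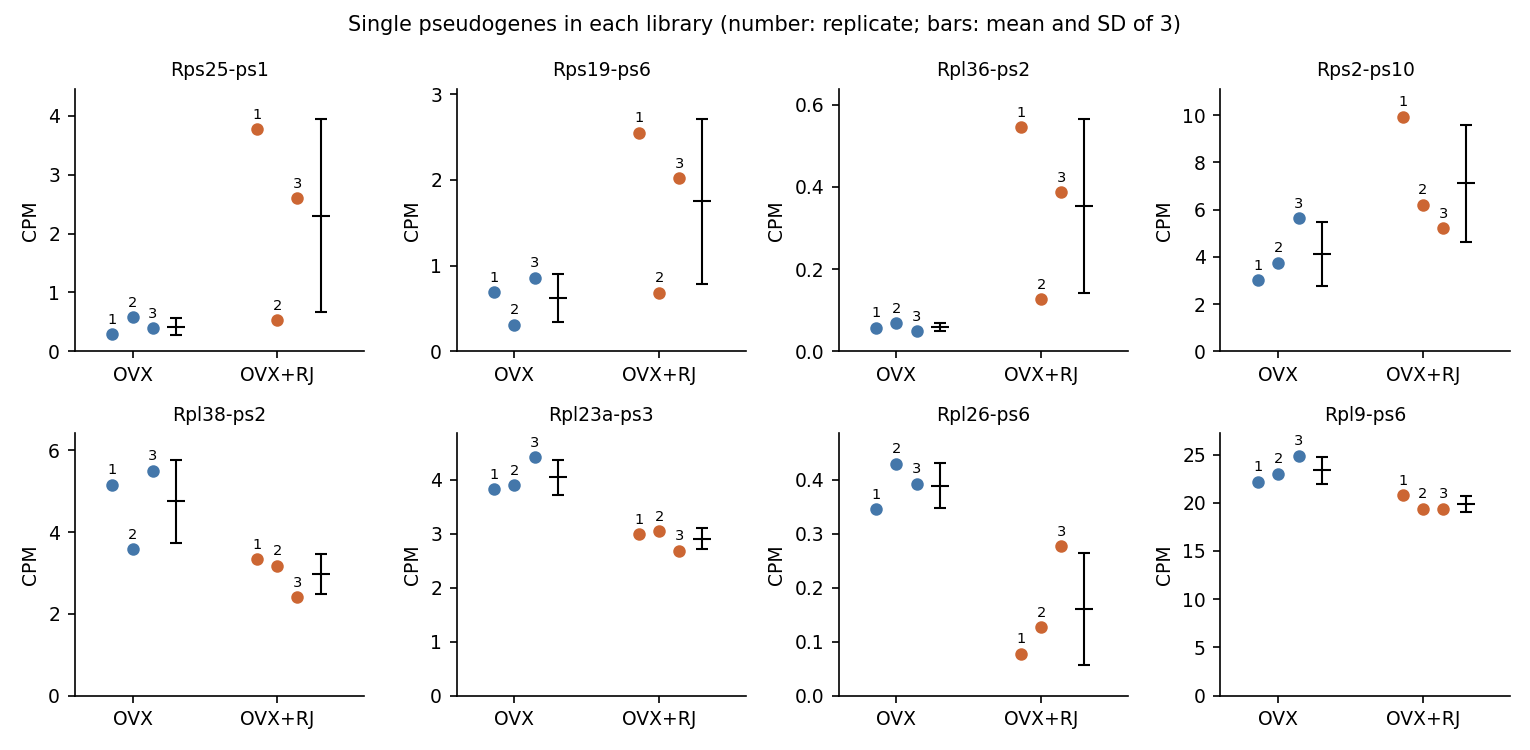
CPM of 8 pseudogenes in each library (y axes, linear from 0), with the replicate number above each point and the mean and SD of 3 libraries beside it. In the first 3 panels OVX+RJ 1 and OVX+RJ 3 lie high and OVX+RJ 2 lies near the OVX libraries, and in the lower row all OVX+RJ points lie below all OVX points.

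In the Rps27a family the parent and its copies had fold changes of opposite sign. Rps27a had 73.6, 54.9 and 38.2 CPM in OVX and 26.4, 35.6 and 27.8 CPM in OVX+RJ, and every OVX library was above every OVX+RJ library. Its log2 fold change was -0.88 ± 0.19 (SE), the lowest of the 57 parents, with an edgeR adjusted p of 0.986. Rps27a-ps2 had 9.19, 15.1 and 26.4 CPM in OVX and 24.3, 23.2 and 23.9 CPM in OVX+RJ. Rps27a-ps3, named after its values were seen, had 2.16, 4.64 and 8.52 CPM in OVX and 9.41, 8.38 and 7.79 CPM in OVX+RJ. Both copies were low in OVX 1 and OVX 2, where the parent was high, and their groups overlapped through OVX 3. Their log2 fold changes were 0.50 ± 0.28 and 0.74 ± 0.37 (SE), with an edgeR adjusted p of 0.986 for both.

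The copies of Rps27a together took 15.5%, 36.1% and 91.5% of the parent's counts in the OVX libraries, against 128%, 89.2% and 114% in the OVX+RJ libraries. The sum of the parent and its 3 copies was 85.0, 74.7 and 73.2 CPM in OVX and 60.2, 67.3 and 59.5 CPM in OVX+RJ. The sum varied by an SD of 9.71 CPM over the 6 libraries against 18.2 CPM for the parent. With the copies' counts added to the parent's row before the fit, an alternative chosen after seeing the data, the log2 fold change was -0.30, with an edgeR adjusted p of 0.985. The groups did not overlap in that sum either. The fold change of the parent row thus moved from -0.88 to -0.30 with the way near-identical copies were treated.

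Rpl7a and its main copy also had opposite signs, at a smaller size. The parent's log2 fold change was -0.49 ± 0.14 (SE; edgeR adjusted p = 0.986), and that of Rpl7a-ps11 was 0.14 ± 0.087 (SE; edgeR adjusted p = 0.986). The library with the highest CPM of the parent, OVX 2, had the lowest CPM of the copy. Parent and 6 copies summed to 99, 115 and 105 CPM in OVX and 99.5, 93.7 and 89.9 CPM in OVX+RJ, so that the groups overlapped in the sum but not in the parent. With the copies added, the log2 fold change was -0.16 (edgeR adjusted p = 0.985).

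**Figure D5:**
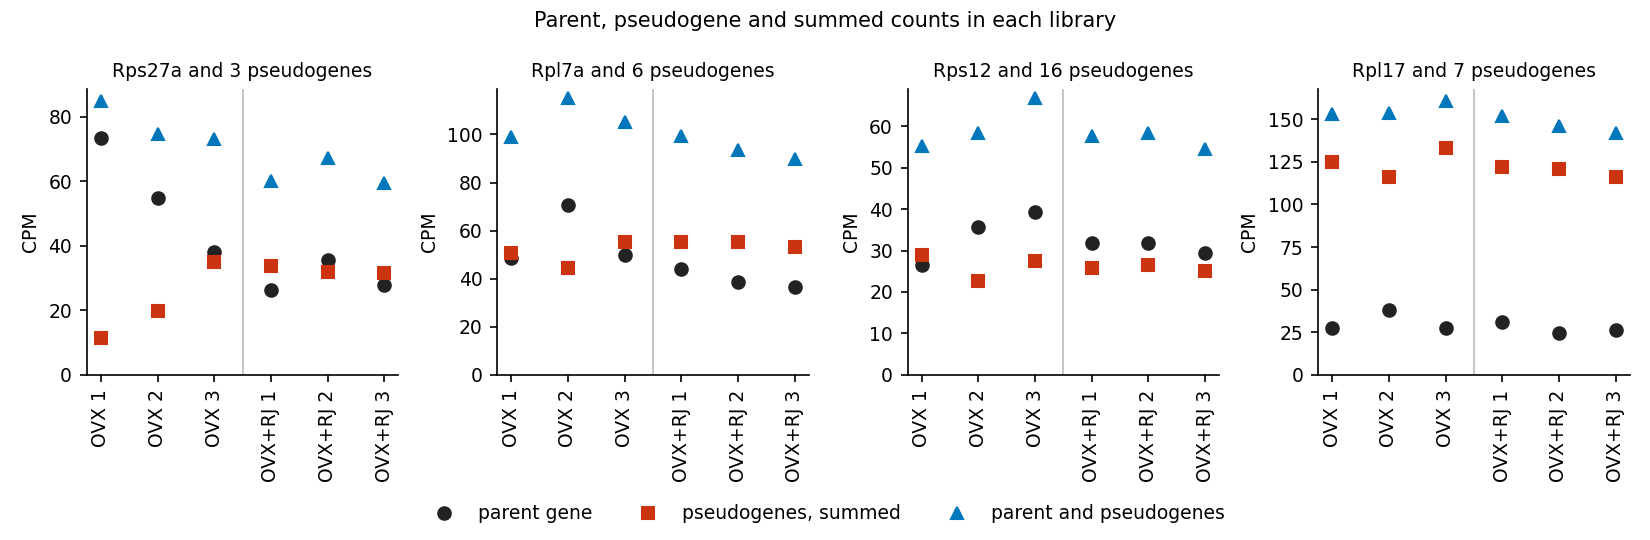
CPM in each library (y axes, linear from 0) of the parent gene (black circles), of its pseudogenes summed (red squares) and of both together (blue triangles) for Rps27a, Rpl7a, Rps12 and Rpl17. In Rps27a the parent goes from 73.6 CPM in OVX 1 to 26.4 CPM in OVX+RJ 1 while the copies go from 11.4 to 33.8 CPM, and the sum stays between 59.5 and 85.0 CPM.

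In the Rps13 family the main copies were high in the same libraries. Rps13-ps1 had 1.64, 1.19 and 4.93 CPM in OVX and 1.14, 3.15 and 2.41 CPM in OVX+RJ, and Rps13-ps2 had 1.24, 0.980 and 4.79 and then 1.35, 2.62 and 1.97 CPM. Both were highest in OVX 3, the library in which the parent Rps13 was lowest at 58.4 CPM against 59 to 68.8 CPM elsewhere. The log2 fold change of Rps13-ps1 was -0.20 and turned to 0.68 without OVX 3, so that 1 library set its sign. The 2 copies share sequence, with 77.5% and 89.4% of their 50-base stretches present in another ribosomal protein pseudogene, and they are not independent measurements.

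The 4 copies of Rpl30 above 0.1 CPM were each lower in OVX+RJ 2 than in any other library. Rpl30-ps10 had 5.30, 4.47 and 5.03 CPM in OVX and 5.64, 2.21 and 4.05 CPM in OVX+RJ. Rpl30-ps8 had 1.56, 1.63 and 1.57 CPM in OVX and 1.66, 0.508 and 1.39 CPM in OVX+RJ. The parent was highest in that library, at 88.1 CPM against 58.3 to 83.1 CPM in the others. The log2 fold change of Rpl30-ps10 was -0.30 ± 0.29 (SE), about the size of its error.

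Such opposite movement was not general over the families. In 15 families the copies took 10% or more of the parent's counts, and in 7 of them the variance of the summed counts over the 6 libraries was below the sum of the separate variances, as it is when parent and copies move oppositely. The same held for 9 of 19 families in which the copies took 1% to 10% and for 12 of 23 in which they took less. In the 15 families the coefficient of variation of the sum was below that of the parent in 10. The medians were 6.58% for the sum, 10.4% for the parent and 8.60% for the copies. A sum of unrelated rows also has a lower coefficient by arithmetic, so this is no measure of opposite movement. Rpl21, Rpl17, Rps12, Rpl7a, Rpl30 and Rps27a were on the opposite-moving side, and Rps7 and Rpl38 were not.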

How the data were processed

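Poly(A) RNA from hippocampus of 3 OVX and 3 OVX+RJ mice was sequenced from a directional kit, per the labels' protocols. The authors deposited a table of unscaled expected counts for each library and gene symbol. The submitters' processing notes name the build GRCm39, and StringTie 2.2.1, HISAT2 2.2.1, fastp 0.23.4 and bcl2fastq 2.19 as tools. Not given in the sources used here are the annotation release, the strand setting and how multiply aligned reads were counted. Of 32067 rows, 1 names no gene, held at most 1.15e-05% of a library's counts and was left out. Values were not whole in 51 rows, none of them a ribosomal protein pseudogene, and were rounded to whole numbers.

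CPM is each count per 1000000 counts of its library, over all rows that name a gene. Genes were kept by filterByExpr, scaled by TMM (factors 0.978 to 1.010) and compared by glmQLFit and glmQLFTest in edgeR 4.0.16 (R 4.3.3), with Benjamini-Hochberg adjustment over 18629 genes, a threshold of 0.05 and a common biological coefficient of variation of 0.134. Standard errors are moderated ones from limma 3.58.1, from a separate fit to log2 CPM (prior count 2). The fold changes and p-values printed beside them are those of edgeR unless DESeq2 is named, so a fold change over its SE does not give the p-value. The test was tested on simulated data. An exact test of 3 against 3 libraries cannot give a two-sided p below 0.1, so none was used for single rows. Alternatives were DESeq2 1.42.0, its size factors in edgeR, no low-count filter, robust empirical Bayes, a block for the replicate number, leaving out each library and, chosen after seeing the data, the copies' counts added to the parent.

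Sequences came from GENCODE M21 on GRCm38, another build than that of the files, so no coordinates are given. Identity is blastn 2.17.0+ against the coding sequence of the parent's principal transcript, and the parent's length is that transcript's. Among several principal transcripts the one with the longest coding sequence was taken, then the longest transcript. A stretch of 50 bases counted as shared where it occurs in sense in a transcript of another gene. The pseudogenes and lists were chosen with earlier results of these data known. The pseudogenes named are the 12 with the highest mean CPM, up to 5 per direction with the lowest p among those whose groups do not overlap, any with an adjusted p under 0.05, up to 6 highest as a percent of the parent, those on either side of 1 CPM, the most abundant copy of each parent with 4 or more copies, and the parents of these. Rps25-ps1, Rps27a-ps3, Rpl36-ps2, Rps13-ps2, Rpl30-ps8 and Rps16-ps2 fall outside this rule and were named after their values were seen.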

Additional observations from a re-analysis of the deposited data

How the results depend on the processing

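The count of pseudogenes called was 0 by edgeR with every alternative scaling, filter and empirical Bayes setting, 1 by DESeq2, and 0 to 1 with 1 library left out, the 1 being Rps25-ps1 without OVX+RJ 2; the parents had 0 throughout. The replicate numbers did not pair the libraries, with correlations of deviations between -0.00238 and 0.046. With the replicate number as a block, 0 pseudogenes were called and their median log2 fold change was -0.084. Of 398 alternative values for 36 named rows, 13 changed sign, all with 1 library left out, in 7 rows near 0, and the cause was not tested. With 1 library left out, the log2 fold change ranged from -0.20 to 0.10 in Rpl19-ps11, from -0.21 to 0.37 in Rpl35a-ps3, from -0.35 to 0.23 in Rpl35a-ps6, from -0.12 to 0.06 in Rps12-ps3, from -0.56 to 0.68 in Rps13-ps1, from -0.50 to 0.12 in Rps15a-ps4 and from -0.10 to 0.05 in Rps7-ps3. Depth limits the 124 untested copies, 66 of which had at most 3 counts in any library. Counts shared with a parent depend on an assignment that is not given in the sources used here.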

Other observations

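The copies that the table types as protein-coding, 14 in all, had a median of 0.0609 CPM, against 0.124 CPM for the 187 typed as pseudogenes. In this set 3 reached 1 CPM: Rpl34-ps1 with 8.84 CPM, Rpl17-ps8 with 6.96 CPM and Rpl13-ps6 with 1.02 CPM. The type that the table gives therefore did not mark the copies with many counts, of which 52 at 1 CPM or more were typed as pseudogenes.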
